A study of Rattus norvegicus with 16 samples.

Results

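The earliest injury state sampled in this study of rat sciatic nerve was that of Schwann cells purified 3 days after a crush, and it was compared here with Schwann cells purified from uncrushed nerves. These were 4 of the 16 samples of the study, 2 from each group, picked by their labels. The comparison itself was chosen with earlier results of these data known. Schwann cells are the glia of peripheral nerve. They were isolated by immunopanning, in which a suspension of dissociated nerve cells passes over antibody-coated dishes. Cells bearing CD45 or Thy1 were held back first, and a dish against the lipid antigen O4 then kept the Schwann cells. Both groups were labelled as rats of postnatal day 18, the age at which the crush was made, and every sample pooled the nerves of several animals. Strain and sex are not given in the sources used here. Crushed nerves were taken from the stretch distal to the crush and uncrushed nerves from the equivalent stretch. The naïve animals had no sham operation, so the crush cannot be told apart from the surgery, the anaesthetic and the carprofen that went with it, or from the days of growth that may separate the groups in age. The pooling hides variation between animals, and a p-value below measures the spread between pools. Schwann cells at day 5 and day 7, and undissociated whole nerve before crush and at day 3, each with 2 samples, served for comparison.

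In an intact nerve a myelinating Schwann cell wraps a single axon and makes large amounts of myelin protein and of cholesterol, the main lipid of myelin. Loss of the axon makes the cell give up this programme, re-enter the cell cycle, digest myelin debris and secrete factors that act on the axons growing back. This state is commonly called the repair Schwann cell, and the transcription factor Jun is known to be needed for it.

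The 4 libraries held between 12599974 and 27562637 expected counts, which are RSEM's estimates of the fragments from each gene. Levels are given as FPKM, fragments scaled to transcript length and to the library's total, always for replicate 1 and then replicate 2. A gene was called changed at an adjusted p below 0.05 in edgeR's quasi-likelihood test (Benjamini-Hochberg over 14961 genes tested of 31038 in the files). With 2 libraries against 2 the smallest p of an exact permutation test for 1 gene is 0.333, so each call rests on a spread shared between genes and between the 4 Schwann cell groups. Markers of the Schwann cell lineage were present in all 4 libraries, with Sox10, the lineage's master regulator, at 59.1 and 69.6 FPKM before crush and 67.2 and 63.6 FPKM at day 3. S100b, a calcium-binding protein of Schwann cells, rose from 533 and 429.5 FPKM to 1266 and 1090.5 FPKM (log2 fold change 1.34), and Egfl8, a secreted protein of these cells, fell from 115 and 119.9 FPKM to 27.5 and 25.6 FPKM (log2 fold change −2.02). Of the 8 lineage markers 4 were called higher and 3 lower, against 26.9% and 25.7% of all genes tested, and they summed to 2015 and 1692 FPKM before crush and to 2153 and 1890 FPKM at day 3.

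Day 3 replicate 2 stood apart in immune genes. The 15 macrophage markers summed to 24.1 and 9.81 FPKM before crush and to 14.6 and 83.9 FPKM at day 3, against 3506 and 3457 FPKM in whole nerve at day 3. Lyz2, the lysozyme of macrophages and granulocytes, accounted for much of that sum with 7.99 and 54.6 FPKM at day 3. Of the 10 macrophage markers with enough counts 2 were called higher, without day 3 replicate 2 none was called higher and 1 was called lower, and without uncrushed replicate 2 none was called higher. The 8 fibroblast markers summed to 579 and 325 FPKM before crush and to 278 and 291 FPKM at day 3. The 8 endothelial markers summed to at most 6.69 FPKM in any of the 4 libraries, and 3 of the 5 tested were called lower, or 2 lower and 2 higher without day 3 replicate 1. As these are bulk samples, fewer cells of a type and less RNA per cell cannot be told apart, here or in the results that follow.

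Similar numbers of genes rose and fell by day 3, and the median fall was larger than the median rise. Of the 14961 genes tested 7860 were called (52.5%), with 4020 higher (26.9%) and 3840 lower (25.7%). The median log2 fold change was −1.25 among genes called lower and 0.89 among genes called higher. The estimated change was at least 2-fold for 1742 of the genes called higher and 2325 of those called lower, and at least 32-fold for 103 and 119. The FPKM of the groups did not overlap for 11410 genes (76.3%). The genes called higher held 26.1% and 25.6% of all counts in the uncrushed libraries and 48.5% and 47.5% at day 3, while those called lower went from 39.5% and 37.7% to 16.2% and 15.6%.

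**Figure D1:**
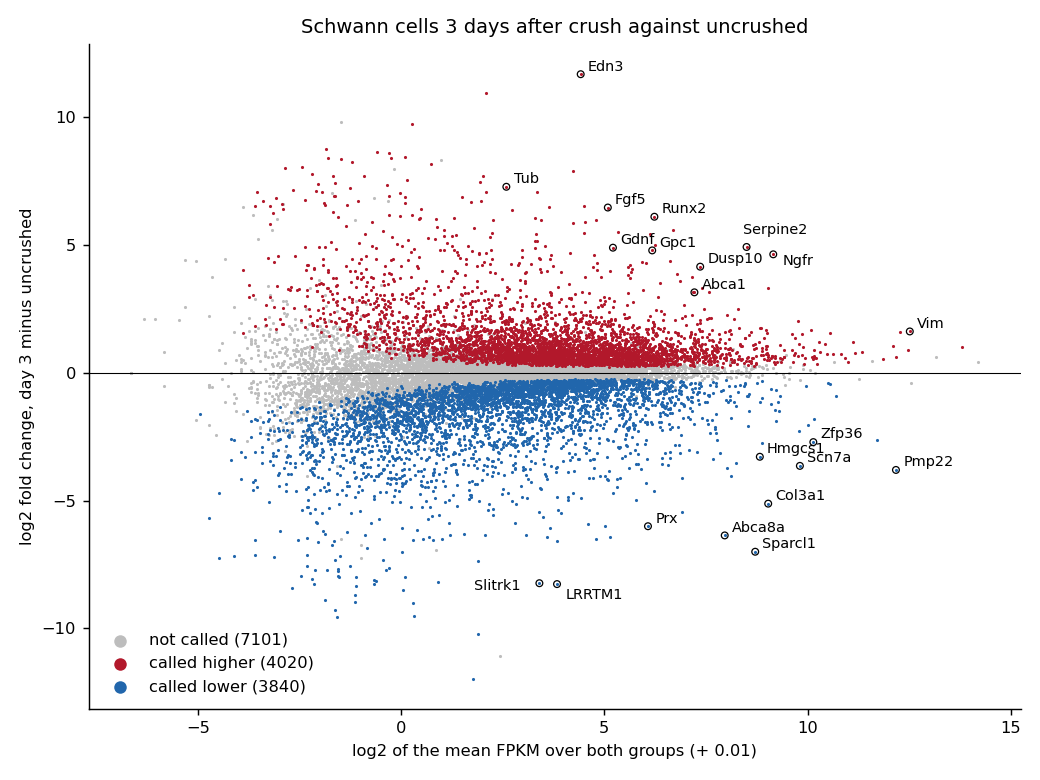
Log2 fold change at day 3 against uncrushed (vertical axis) plotted against the log2 of the mean FPKM of both groups plus 0.01 (horizontal axis) for the 14961 genes tested, with 4020 called higher in red, 3840 called lower in blue and the others in grey. Changes of over 32-fold occurred at high as well as low levels, and for genes at the counting floor in a group, such as Edn3, the plotted fold depends on the prior count and is no estimate.

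The rises with the lowest adjusted p included regulators, secreted proteins and surface proteins. Runx2, best known as the master transcription factor of bone-forming cells, rose from 2.1 and 2.16 FPKM to 147 and 149 FPKM (log2 fold change 6.10, SE 0.154, adjusted p = 4.1e-08). Gpc1, a heparan sulfate proteoglycan of the cell surface that binds growth factors, rose from 5.09 and 5.44 FPKM to 133 and 146 FPKM (log2 fold change 4.78, SE 0.132, adjusted p = 4.1e-08). Npas2, a circadian transcription factor that partners Arntl, rose from 0.56 and 0.58 FPKM to 20.7 and 18.7 FPKM (log2 fold change 5.15, SE 0.141, adjusted p = 4.1e-08). In each the 2 day 3 libraries lay close together and far above both uncrushed ones. Sema3e, a secreted guidance cue for axons and vessels, rose from 1.14 and 0.91 FPKM to 57.3 and 51.3 FPKM (log2 fold change 5.96, SE 0.171, adjusted p = 4.6e-08), and Nbl1, a secreted antagonist of bone morphogenetic proteins, rose from 7.72 and 7.06 FPKM to 89.8 and 94.8 FPKM (log2 fold change 3.68). Cd276, an immune checkpoint ligand of the B7 family, rose from 15.2 and 14 FPKM to 221 and 195 FPKM (log2 fold change 3.88). Hook1, an adaptor that ties cargo to microtubule motors, was scarce before crush and rose from 0.3 and 0.29 FPKM to 7.5 and 6.99 FPKM (log2 fold change 4.68). Pcsk1, a convertase that cuts prohormones, rose from 0.61 and 0.38 FPKM to 44.4 and 45.4 FPKM (log2 fold change 6.54), one of the largest folds. Aldh1a2, which makes retinoic acid, was called higher with 0.14 and 0 FPKM before crush and 7.59 and 7.84 FPKM at day 3, and no fold is given because 1 uncrushed library held no count of it. Among genes of at least 5 FPKM at day 3 and above the counting floor before crush, the largest fold was that of Tub, the tubby protein gene, which rose from 0.1 and 0.06 FPKM to 11.3 and 12.6 FPKM (log2 fold change 7.27, SE 0.243, adjusted p = 5.1e-08).

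For genes at the counting floor of 3 counts or fewer in each uncrushed library the rise is given as a lower bound. Edn3, a secreted peptide that acts on the endothelin B receptor, was at 0 FPKM in both uncrushed libraries and at 37.3 and 48.2 FPKM at day 3, at least 103-fold higher. Hmga2, a chromatin protein of embryonic tissue, was likewise at 0 FPKM in both and reached 2.79 and 3.86 FPKM, at least 9-fold higher. In all 147 of the genes called higher were at that floor before crush, and 172 of the genes called lower were at it on day 3. These bounds cover counting error only, since the cDNA was amplified and carries no molecular identifiers.

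Among the genes that fell with the lowest adjusted p were structural, channel and lipid genes of the myelinating cell. Pmp22, a membrane protein of compact myelin, fell from 8584 and 8721 FPKM to 619 and 583 FPKM (log2 fold change −3.80, SE 0.126, adjusted p = 5.0e-08). Cldn19, a claudin of the tight junctions within the myelin sheath, fell from 226 and 243 FPKM to 6.13 and 6.51 FPKM (log2 fold change −5.45, SE 0.186, adjusted p = 5.4e-08). Kcna2, a potassium channel subunit, fell from 62.3 and 65.3 FPKM to 1.15 and 1.05 FPKM (log2 fold change −5.99, SE 0.192, adjusted p = 5.0e-08). The enzyme Fdft1 of cholesterol synthesis belonged to the same group and is given with its pathway. Bcas1, a protein of myelin-forming glia, fell from 141 and 145 FPKM to 5.39 and 5.74 FPKM (log2 fold change −4.62). Lgr5, a receptor for R-spondins that strengthens Wnt signaling, fell from 130.4 and 117 FPKM to 6.6 and 5.61 FPKM (log2 fold change −4.30). Irf1, a transcription factor induced by interferon, fell from 110.3 and 93.4 FPKM to 8.6 and 7.77 FPKM (log2 fold change −3.59). The largest folds downward included cell adhesion and glutamate receptor genes that are mostly studied at synapses. LRRTM1 fell from 26.2 and 30.8 FPKM to 0.07 and 0.08 FPKM (log2 fold change −8.27), and Slitrk1 fell from 20.4 and 21.7 FPKM to 0.03 and 0.08 FPKM (log2 fold change −8.23, −9.19 without day 3 replicate 2 on at most 3 counts in replicate 1). Gria2, an AMPA receptor subunit, fell from 7.29 and 7.35 FPKM to 0.03 and 0.05 FPKM (log2 fold change −7.35). Sparcl1, a matricellular protein, fell from 895 and 771 FPKM to 5.53 and 6.87 FPKM (log2 fold change −7.00, SE 0.283, adjusted p = 9.5e-08). The groups did not overlap for any gene named with its values so far except Sox10 and the macrophage marker Lyz2.

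**Figure D2:**
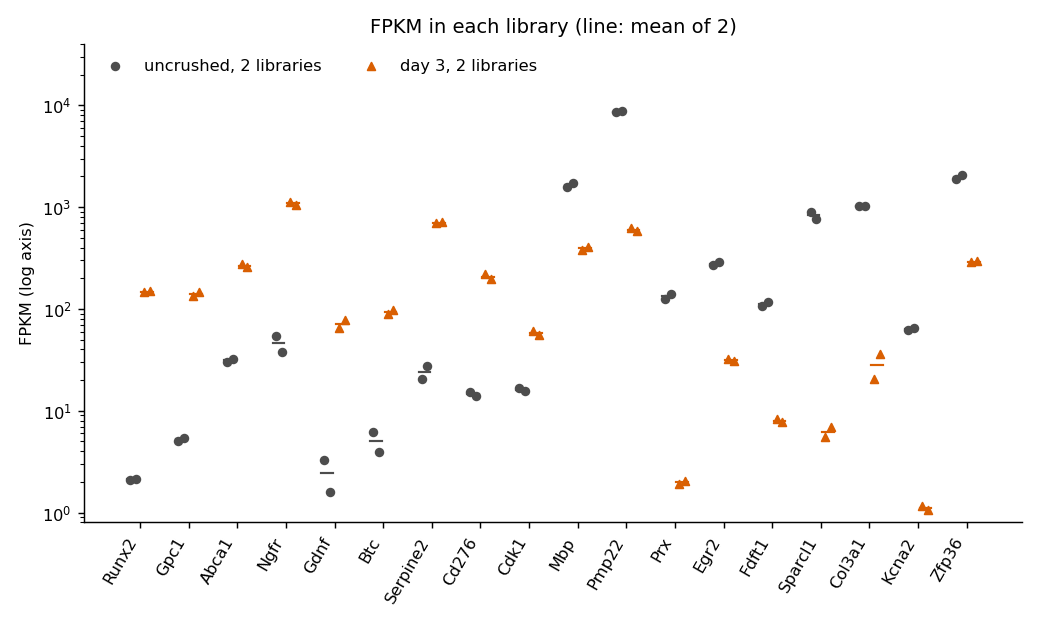
FPKM of 18 genes (horizontal axis) in each of the 4 libraries on a log axis, with circles for uncrushed and triangles for day 3 and a line at the mean of 2. The libraries of a group lie close together, and for all 18 genes the 2 groups are separate, with Runx2, Serpine2 and Gdnf the widest gaps upward and Sparcl1, Prx and Kcna2 the widest downward.

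Pathways were described by counting called genes in 44 lists, with no test of a list as such. Beside the 26.9% of all genes tested called higher and the 25.7% called lower, the lists ranged from mitosis, with nearly all members higher, to cholesterol synthesis, with nearly all lower.

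**Figure D3:**
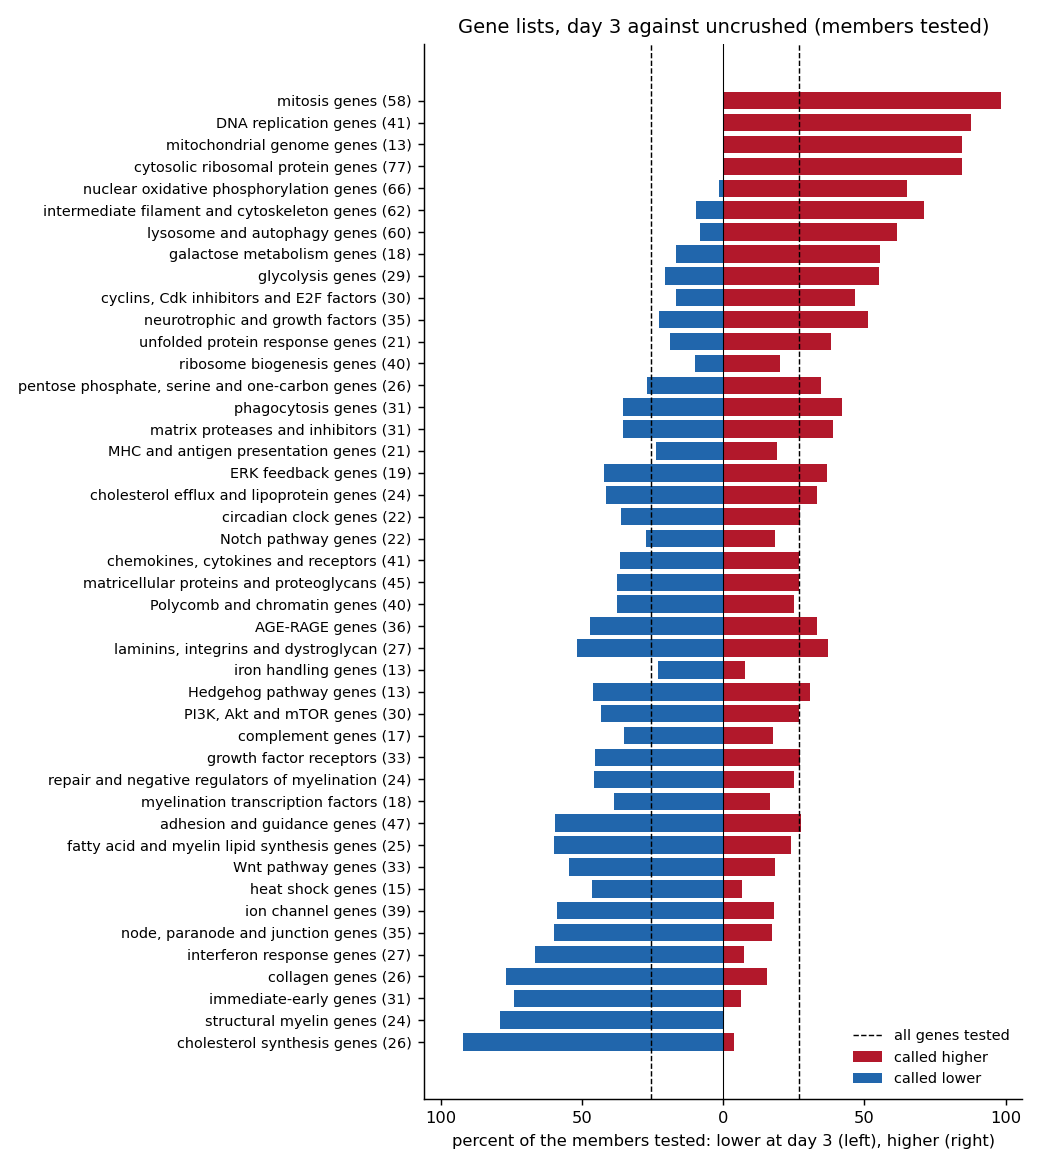
Percent of the tested members of each functional list (number tested in brackets) that were called lower (left, blue) and higher (right, red) at day 3, with dashed lines at the 25.7% lower and 26.9% higher of all genes tested. Mitosis with 57 of 58 higher and cholesterol synthesis with 24 of 26 lower are the extremes.

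Structural myelin genes fell, though not all of them. Of 24 tested 19 fell and none rose, with a median log2 fold change of −1.81 against 0.00 for all genes tested. Prx, a scaffold that links the outer myelin surface to the dystroglycan complex, fell from 124 and 141 FPKM to 1.93 and 2.04 FPKM (log2 fold change −6.01, SE 0.221, adjusted p = 6.4e-08). Mag, an adhesion molecule of the membrane facing the axon, fell from 43.9 and 52.2 FPKM to 0.91 and 0.7 FPKM (log2 fold change −5.90). These lost nearly all of their message, whereas other members lost less. Mbp, which compacts the cytoplasmic faces of myelin, fell from 1584 and 1736 FPKM to 382 and 409.7 FPKM (log2 fold change −2.05, SE 0.136, adjusted p = 1.7e-06). Cnp, an enzyme of uncompacted myelin, was not called and had 315 and 326 FPKM before crush and 298 and 322 FPKM at day 3.

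Cholesterol synthesis had the highest share of falls of any list, with 24 of 26 genes lower (median −2.17). Hmgcs1, at the entry of the pathway, fell from 876 and 777 FPKM to 72.5 and 90.1 FPKM (log2 fold change −3.29, SE 0.137, adjusted p = 1.2e-07). Fdft1, which makes squalene and commits the pathway to sterols, fell from 108 and 116 FPKM to 8.28 and 7.75 FPKM (log2 fold change −3.75, SE 0.119, adjusted p = 5.0e-08). The fall ran from the entry to the late steps. Mvd, which makes isopentenyl pyrophosphate, fell from 5.23 and 6.03 FPKM to 0.73 and 0.83 FPKM (log2 fold change −2.78), and Tm7sf2, a late sterol reductase, fell from 5.69 and 6.45 FPKM to 0.3 and 0.2 FPKM (log2 fold change −4.58). Srebf2, the transcription factor that drives the pathway, fell from 25.9 and 23.1 FPKM to 4.45 and 5.81 FPKM (log2 fold change −2.20). The 1 called rise, of Ggps1, which turns toward protein prenylation rather than sterols, was small (log2 fold change 0.34). Its call was lost without day 3 replicate 1, day 3 replicate 2 or uncrushed replicate 1. It was also lost with DESeq2, upper quartile scaling, the 4 libraries only, no filter on low counts or a mean of at least 50 counts.

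Fatty acid and myelin lipid genes were divided, with 15 of 25 lower and 6 higher (median −0.40). Elovl7, a fatty acid elongase, fell from 29.2 and 35.9 FPKM to 1.48 and 2.61 FPKM (log2 fold change −3.88). Fa2h, which makes the hydroxylated fatty acids of myelin galactolipids, fell from 34.3 and 40.2 FPKM to 3.91 and 3.1 FPKM (log2 fold change −3.38), and Fasn, the fatty acid synthase, fell from 21.2 and 21.4 FPKM to 7.76 and 7.53 FPKM (log2 fold change −1.42). The rises included Fads2, a desaturase of polyunsaturated fatty acids, which rose from 54.8 and 56.6 FPKM to 161 and 167 FPKM (log2 fold change 1.56), and Me1, the malic enzyme that supplies NADPH, which rose from 2.15 and 1.84 FPKM to 5.65 and 6.56 FPKM (log2 fold change 1.68).

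In the list of cholesterol efflux and lipoproteins 8 of 24 genes rose and 10 fell. Abca1, which exports cholesterol to apolipoproteins, rose from 30.2 and 32.2 FPKM to 274 and 258 FPKM (log2 fold change 3.14, SE 0.102, adjusted p = 5.0e-08). Apod, an apolipoprotein of the lipocalin family, rose from 18.2 and 19.3 FPKM to 169 and 262 FPKM (log2 fold change 3.57), and its day 3 libraries were the less alike. Apoe went the other way and fell from 176 and 224 FPKM to 34.2 and 36.9 FPKM (log2 fold change −2.46).

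The transcription factors of myelination did not move together. Of 18 tested 7 fell and 3 rose (median −0.01, −0.02 without day 3 replicate 1, −0.03 without day 3 replicate 2, −0.03 without uncrushed replicate 1, 0.03 without uncrushed replicate 2), and without day 3 replicate 2 or uncrushed replicate 1 a single rise was called. Egr2, the master regulator of myelination, fell from 270.0 and 286 FPKM to 32.2 and 30.7 FPKM (log2 fold change −3.12, SE 0.135, adjusted p = 1.3e-07). Pou3f1, which precedes it, fell from 23.3 and 21.6 FPKM to 5.95 and 7.36 FPKM (log2 fold change −1.69). Zbtb16, a zinc finger repressor, was at 0.58 and 0.4 FPKM before crush and at the floor on day 3, at least 24.1-fold lower. Of the corepressors that bind Egr2, Nab1 fell from 16.6 and 11 FPKM to 7.39 and 6.41 FPKM (log2 fold change −0.98) and Nab2 had 11.7 and 11.1 FPKM before crush and 12.9 and 11.9 FPKM at day 3, which was not called.

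Regulators that oppose myelination or mark repair fell more often than they rose, with 6 of 24 higher and 11 lower (median −0.46). Among all genes tested 26.9% were called higher and 25.7% lower. Runx2 and Hmga2 led the rises, and Sox2, a factor of immature Schwann cells, rose from 25.9 and 18.9 FPKM to 48.9 and 47.9 FPKM (log2 fold change 1.16, SE 0.16, adjusted p = 2.2e-04). Id2, an inhibitor of basic helix-loop-helix factors, fell from 76.2 and 82.3 FPKM to 5.04 and 3.98 FPKM (log2 fold change −4.12, SE 0.166, adjusted p = 9.5e-08). Its relative Id1 fell from 25.5 and 28.1 FPKM to 14.1 and 14.1 FPKM (log2 fold change −0.93), and Id3 was not called and had 91.5 and 98.3 FPKM before crush and 107 and 104 FPKM at day 3. Etv1, a target of ERK signaling, fell from 40.1 and 39.8 FPKM to 5.32 and 5.05 FPKM (log2 fold change −2.89). Jun itself was lower at day 3 than in uncrushed purified cells and fell from 383 and 408 FPKM to 232 and 218 FPKM (log2 fold change −0.77, SE 0.0971, adjusted p = 1.3e-04). Atf3, another factor induced by nerve injury, fell from 416 and 403 FPKM to 312 and 291 FPKM (log2 fold change −0.39), and that call was lost without day 3 replicate 1, day 3 replicate 2 or uncrushed replicate 1.

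Whole nerve, which was not dissociated, gave the opposite direction for both. Jun had 10.3 and 9.39 FPKM in uncrushed nerve and 49 and 52 FPKM at day 3, and its change in Schwann cells differed from that in nerve by −2.82 on the log2 scale (SE 0.16, adjusted p = 3.9e-08). Atf3 had 3.33 and 5.66 FPKM in uncrushed nerve and 79.7 and 73.4 FPKM at day 3, a difference of −4.21 (SE 0.269, adjusted p = 8.8e-08). The purified cells held 383 and 408 FPKM of Jun before crush, many times the level in uncrushed nerve. Jun and Atf3 are both immediate-early genes, a list described below. In whole nerve 11 of 27 regulators that oppose myelination or mark repair rose and 3 fell (median 0.54). For that list the difference, Schwann cells minus nerve, was called below 0 for 13 and above 0 for 1.

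Of 35 neurotrophic and growth factors 18 rose and 8 fell (median 1.05, 0.66 without uncrushed replicate 2). Gdnf, a survival factor of motor neurons, rose from 3.26 and 1.6 FPKM to 65.2 and 78.2 FPKM (log2 fold change 4.89, SE 0.264, adjusted p = 4.4e-07). Fgf5, a fibroblast growth factor, rose from 0.79 and 0.78 FPKM to 68 and 66.2 FPKM (log2 fold change 6.46, SE 0.215, adjusted p = 5.0e-08), and Btc, a ligand of the EGF family, rose from 6.25 and 3.93 FPKM to 89.3 and 98.6 FPKM (log2 fold change 4.23, SE 0.277, adjusted p = 1.6e-06). All 3 were low before crush and well above it in both day 3 libraries. Shh, the Hedgehog ligand, was at the floor before crush and at 3.87 and 4.27 FPKM on day 3, at least 27.4-fold higher. Tgfb1, a cytokine that Schwann cells and macrophages both make, rose from 3.15 and 2.81 FPKM to 18.9 and 17.1 FPKM (log2 fold change 2.64). The neurotrophin Bdnf stayed at a low level and rose from 0.26 and 0.13 FPKM to 0.7 and 0.85 FPKM (log2 fold change 2.08). Other factors fell. Fgf1 fell from 48 and 44.8 FPKM to 1.94 and 3.17 FPKM (log2 fold change −4.11, SE 0.232, adjusted p = 6.0e-07), and Nrg1, a ligand of ErbB receptors, fell from 1.45 and 0.95 FPKM to 0.05 and 0.1 FPKM (log2 fold change −4.03, −5.84 without day 3 replicate 2 on at most 3 counts in replicate 1). Cntf, a factor stored in myelinating Schwann cells, fell from 33.6 and 26.6 FPKM to 20.7 and 19.4 FPKM (log2 fold change −0.54), and that call was lost without day 3 replicate 2 or uncrushed replicate 1.

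Of 33 growth factor receptors 9 rose and 15 fell (median −0.39, −0.13 without day 3 replicate 1, −0.17 without uncrushed replicate 1). Gfra1, the co-receptor for GDNF, rose with its ligand from 96 and 70.0 FPKM to 443 and 435 FPKM (log2 fold change 2.25, SE 0.121, adjusted p = 4.4e-07). Met, the receptor of hepatocyte growth factor, rose from 3.41 and 2.85 FPKM to 49.6 and 57.5 FPKM (log2 fold change 4.27, SE 0.15, adjusted p = 5.5e-08). Gpr83, a G protein-coupled receptor, rose from 0.23 and 0.34 FPKM to 21.9 and 27.5 FPKM (log2 fold change 6.50). Ngfr, the p75 neurotrophin receptor, rose as well (log2 fold change 4.63), while the neurotrophin receptors Ntrk2 and Ntrk3 went down. Ntrk2, the receptor of BDNF, fell from 114 and 92.5 FPKM to 11.3 and 10.7 FPKM (log2 fold change −3.17), and Ntrk3 fell from 81.6 and 60.8 FPKM to 10.7 and 8.73 FPKM (log2 fold change −2.90). Lgr6, a relative of Lgr5, was called lower with 1.13 and 1.06 FPKM before crush and 0 and 0.18 FPKM at day 3, and no fold is given because 1 day 3 library held no count of it. Erbb3, the neuregulin receptor of Schwann cells, rose from 186 and 165 FPKM to 249.9 and 233 FPKM (log2 fold change 0.52).

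Mitosis genes rose nearly without exception, and most DNA replication genes rose. Of 58 mitosis genes 57 rose and none fell (median 1.48), and of 41 DNA replication genes 36 rose and none fell (median 1.13). Cdk1, the kinase that drives entry into mitosis, rose from 16.6 and 15.7 FPKM to 60.1 and 55.1 FPKM (log2 fold change 1.89, SE 0.155, adjusted p = 6.7e-06). Birc5, the survivin subunit of the chromosomal passenger complex, rose from 1.96 and 1.03 FPKM to 5.9 and 6.95 FPKM (log2 fold change 2.14), and Ccnb1, the cyclin partner of Cdk1, rose from 5.62 and 3.91 FPKM to 20.2 and 17.2 FPKM (log2 fold change 2.02). Mki67, the Ki-67 antigen, rose from 39.1 and 37 FPKM to 81.7 and 84.9 FPKM (log2 fold change 1.19), and Top2a, topoisomerase II, rose from 45.6 and 33.8 FPKM to 64 and 60.8 FPKM (log2 fold change 0.71). These genes were not silent before crush, and their folds were moderate. Rrm2, the regulated subunit of ribonucleotide reductase, had the largest fold of the replication list and rose from 13.5 and 23.5 FPKM to 141 and 141 FPKM (log2 fold change 2.97, SE 0.228, adjusted p = 4.3e-06). Mcm5, a subunit of the replicative helicase, rose from 3.62 and 2.66 FPKM to 10.1 and 10.8 FPKM (log2 fold change 1.79), and Cdt1, which licenses origins, rose from 1.77 and 1.16 FPKM to 5.57 and 5.93 FPKM (log2 fold change 2.02).

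Among 30 cyclins, Cdk inhibitors and E2F factors 14 rose and 5 fell, and without day 3 replicate 2 those counts were 9 and 5. Ccnd1, the D cyclin of cell cycle entry, rose from 37.2 and 41.5 FPKM to 354 and 328 FPKM (log2 fold change 3.17, SE 0.124, adjusted p = 7.8e-08), while Ccnd3, of the same family, was not called and had 23.8 and 21.6 FPKM before crush and 18.7 and 20.9 FPKM at day 3. E2f1, a transcription factor of the G1 to S transition, rose from 2 and 2.07 FPKM to 5.58 and 6.67 FPKM (log2 fold change 1.65). The inhibitor Cdkn1a fell from 27.1 and 31.7 FPKM to 6.18 and 8.54 FPKM (log2 fold change −1.93). Myc, a growth-promoting factor, fell from 115 and 112 FPKM to 14.8 and 16.7 FPKM (log2 fold change −2.80) and so moved against the cell cycle genes.

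Promoters of the mitosis genes are shown because the members moved together and many carry the same short elements. The sequences are from a RefSeq table of the assembly GRCr8 that holds 250 bases before and 50 bases after the start of 27457 genes, in which 50 of the 58 mitosis genes were matched by symbol. Both strands were searched for the cell cycle element TTTGAA and the CCAAT box CCAAT, and, for comparison, the AP-1 site TGANTCA, which can overlap TTTGAA by its first letters. The element TTTGAA was in 35 of the 50 promoters (70%), against 18.1% of all 27457 promoters. CCAAT was in 36 (72%), against 37.7%. Both were in 27 (54%), against 7.25%. The AP-1 site was in 2 mitosis promoters (4%) and 7.33% of all promoters. Of the 41 DNA replication genes, most of which also rose, 34 were matched. TTTGAA was in 3 of these 34 promoters (8.82%), CCAAT in 20 (58.8%) and both in 1 (2.94%). A match describes letters in a window and is not shown to be a bound site. All promoters here means those of the RefSeq table, which includes genes that were not tested. Fewer than 80% of the genes tested, of those called higher, of those called lower and of the cholesterol synthesis genes were matched, so no share is given for them. Promoters on some chromosomes were set aside before the next step. Among the rest of the matched mitosis promoters, 12 held both elements within the 100 bases before the start. The stretches of the 5 genes with the largest rises among these 12 are shown. Their places in GRCr8 are chr10:28406327-28406426 on the minus strand for Pttg1, chr20:19265193-19265292 on the plus strand for Cdk1, chr10:25665216-25665315 on the minus strand for Hmmr, chr1:143659381-143659480 on the plus strand for Prc1 and chr2:177135334-177135433 on the minus strand for Cks1b. Each is written 5′ to 3′ on the strand of the gene, with each match to the cell cycle element or to the CCAAT box, on either strand, in capitals.
Pttg1: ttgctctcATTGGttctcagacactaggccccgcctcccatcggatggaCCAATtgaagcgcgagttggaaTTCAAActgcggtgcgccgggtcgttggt
Cdk1: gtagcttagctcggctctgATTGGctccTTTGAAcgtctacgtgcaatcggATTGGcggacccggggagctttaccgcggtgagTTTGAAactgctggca
Hmmr: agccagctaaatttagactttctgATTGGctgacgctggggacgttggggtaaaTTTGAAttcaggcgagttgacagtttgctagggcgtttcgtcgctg
Prc1: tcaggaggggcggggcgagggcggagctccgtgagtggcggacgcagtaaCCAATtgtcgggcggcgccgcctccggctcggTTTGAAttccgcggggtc
Cks1b: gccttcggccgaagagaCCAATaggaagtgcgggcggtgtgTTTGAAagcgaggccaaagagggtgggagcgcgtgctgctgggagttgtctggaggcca

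Pttg1, securin, an inhibitor of the protease separase, rose from 6.45 and 8.04 FPKM to 25.7 and 35.5 FPKM (log2 fold change 2.04). Hmmr, a spindle protein, rose from 21.6 and 15.6 FPKM to 61.9 and 64.8 FPKM (log2 fold change 1.82), and Prc1, which bundles the microtubules of the midzone, rose from 23.8 and 28.3 FPKM to 76.7 and 84.2 FPKM (log2 fold change 1.69). Cks1b, a subunit of Cdk complexes, rose from 11.6 and 8.45 FPKM to 23.9 and 23.6 FPKM (log2 fold change 1.30). For each of the 5 genes shown both day 3 libraries lay above both uncrushed ones. The 5 were picked for their large rises, and the groups did not overlap for 76.3% of all genes tested.

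Matrix genes fell more often than they rose. Of 26 collagen genes 20 fell and 4 rose (median −1.72). Col3a1, a fibrillar collagen, fell from 1024 and 1015 FPKM to 20.3 and 35.8 FPKM (log2 fold change −5.12, SE 0.297, adjusted p = 7.1e-07). Col11a1, another fibrillar collagen, fell from 22.3 and 23.1 FPKM to 1.14 and 1.29 FPKM (log2 fold change −4.16), and Col4a1, of the basal lamina, fell from 105 and 90.2 FPKM to 13.6 and 13.6 FPKM (log2 fold change −2.78). Col7a1 rose from 0.22 and 0.17 FPKM to 4.12 and 5.75 FPKM (log2 fold change 4.72), and Col18a1, the source of endostatin, rose from 16.7 and 14.1 FPKM to 60.4 and 61.7 FPKM (log2 fold change 2.04). Col1a2 was not called with all libraries and was called higher without uncrushed replicate 1 (log2 fold change 2.73). Its uncrushed libraries stood apart at 249 and 12.7 FPKM, a gap that also makes most of the difference between the fibroblast marker sums of these libraries. The part of other cells in the fall of the collagens was not tested. Of 27 laminins, integrins and dystroglycan genes 14 fell and 10 rose (median −0.55). Lama2, the laminin chain of the Schwann cell basal lamina, fell from 352 and 307 FPKM to 65.2 and 58.3 FPKM (log2 fold change −2.36, SE 0.1, adjusted p = 1.2e-07), and Lama4 fell from 162 and 137 FPKM to 50.3 and 45.2 FPKM (log2 fold change −1.59). The integrin chains Itga3 and Itga5 were scarce before crush. Itga3, which binds laminin, rose from 0.07 and 0.18 FPKM to 1.56 and 1.65 FPKM (log2 fold change 3.67, 3.07 without uncrushed replicate 1, 4.55 without uncrushed replicate 2), and Itga5, which binds fibronectin, rose from 0.83 and 0.64 FPKM to 3.1 and 2.71 FPKM (log2 fold change 2.03). Fn1, fibronectin itself, rose from 5.46 and 4.49 FPKM to 10.5 and 21.1 FPKM (log2 fold change 1.74, 1.14 without day 3 replicate 2).

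Among 45 matricellular proteins and proteoglycans 12 rose and 17 fell (median −0.34, −0.08 without day 3 replicate 1, −0.90 without day 3 replicate 2, −0.22 without uncrushed replicate 1), with large changes in both directions. Thbs4, a thrombospondin, rose from 5.29 and 3.35 FPKM to 179 and 224 FPKM (log2 fold change 5.60, SE 0.207, adjusted p = 6.4e-08). Ltbp1, which anchors latent TGF-beta in the matrix, rose from 0.62 and 0.71 FPKM to 36 and 37.7 FPKM (log2 fold change 5.84, SE 0.277, adjusted p = 2.1e-07). Tnc, tenascin C, rose from 7.67 and 5.79 FPKM to 134 and 112 FPKM (log2 fold change 4.30, SE 0.22, adjusted p = 3.3e-07), and Spp1, osteopontin, rose from 14.8 and 9.77 FPKM to 101 and 121 FPKM (log2 fold change 3.23). Against these rises Sparcl1 was nearly lost, as given above, and its relative Sparc fell from 2211 and 2176 FPKM to 1131 and 1134 FPKM (log2 fold change −0.90). Mfap5, a microfibril protein, fell from 95.2 and 116 FPKM to 8.55 and 8.37 FPKM (log2 fold change −3.57). The 31 matrix proteases and inhibitors held 12 rises and 11 falls. Serpine2, an inhibitor of thrombin and plasminogen activators, rose from 20.5 and 27.4 FPKM to 691 and 709.7 FPKM (log2 fold change 4.92, SE 0.213, adjusted p = 1.3e-07). A2m, a broad inhibitor of proteases, rose from 0.23 and 0.07 FPKM to 4.48 and 4.76 FPKM (log2 fold change 4.95, 5.99 without uncrushed replicate 1). The ADAMTS proteases were divided. Adamts17 fell from 56.3 and 53 FPKM to 0.61 and 0.54 FPKM (log2 fold change −6.52, SE 0.172, adjusted p = 4.1e-08) and Adamts20 fell from 124 and 89.5 FPKM to 3.7 and 2.91 FPKM (log2 fold change −4.96), whereas Adamts14 was at the floor before crush and at 1.41 and 1.43 FPKM on day 3, at least 31.1-fold higher.

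Of 47 adhesion and guidance genes 28 fell and 13 rose (median −0.80). Ncam1, the neural cell adhesion molecule, fell from 164 and 150.2 FPKM to 14.3 and 11.3 FPKM (log2 fold change −3.58, SE 0.141, adjusted p = 7.8e-08), and L1cam, of the same superfamily, fell from 92.7 and 84 FPKM to 38.1 and 33.9 FPKM (log2 fold change −1.24). Sema5a, a transmembrane semaphorin, fell from 57.7 and 64 FPKM to 3.53 and 3.53 FPKM (log2 fold change −4.06). Sema3a, a secreted semaphorin like Sema3e, rose from 0.13 and 0.08 FPKM to 2 and 1.76 FPKM (log2 fold change 4.19). Cd24, a small glycoprotein of immature cells, rose from 5.2 and 5.5 FPKM to 92.1 and 88.5 FPKM (log2 fold change 4.13, SE 0.145, adjusted p = 5.6e-08). Efnb3, an ephrin, was at 0.56 and 0.76 FPKM before crush and at the floor on day 3, at least 12.9-fold lower.

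Of 35 genes of the node, paranode and junctions 21 fell and 6 rose (median −0.58). Gldn, gliomedin, which Schwann cells secrete to cluster sodium channels at the node, fell from 50.1 and 50.7 FPKM to 3.9 and 3.51 FPKM (log2 fold change −3.72, SE 0.2, adjusted p = 4.3e-07). Nrcam, a partner of gliomedin, moved the other way and rose from 10.5 and 9.95 FPKM to 42 and 43.6 FPKM (log2 fold change 1.97). Nfasc, whose glial form anchors the paranode, fell from 9.09 and 9.65 FPKM to 3.98 and 4 FPKM (log2 fold change −1.17). The claudin Cldn14 rose from 0.61 and 0.51 FPKM to 5.34 and 5.42 FPKM (log2 fold change 3.10), in contrast to its relative Cldn19. Of 39 ion channel genes 23 fell and 7 rose (median −1.32), and 4 rises were called when day 3 replicate 1 or 2 or uncrushed replicate 1 was left out. Scn7a, an atypical sodium channel of glia, fell from 1673 and 1667 FPKM to 154 and 102 FPKM (log2 fold change −3.65, SE 0.198, adjusted p = 4.5e-07). Kcna1, a relative of Kcna2, fell from 70.8 and 74.4 FPKM to 8.56 and 9.75 FPKM (log2 fold change −2.93).

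Of 62 intermediate filament and cytoskeleton genes 44 rose and 6 fell (median 0.86). Vim, vimentin, was abundant already before crush and rose from 3166 and 2765 FPKM to 8961 and 8548 FPKM (log2 fold change 1.61, SE 0.0963, adjusted p = 8.5e-07). Nes, nestin, rose from 29.1 and 33.7 FPKM to 304 and 308 FPKM (log2 fold change 3.33, SE 0.139, adjusted p = 1.2e-07), and Tes, testin, a focal adhesion protein, rose from 2.56 and 1.02 FPKM to 82 and 76.8 FPKM (log2 fold change 5.51, SE 0.283, adjusted p = 3.3e-07, log2 fold change 6.30 without uncrushed replicate 1). Lmna, of the nuclear lamina, rose from 54.4 and 60.7 FPKM to 101 and 99.6 FPKM (log2 fold change 0.85). Gap43, a growth-associated protein of axons and denervated glia, rose from 1.32 and 1.1 FPKM to 10.9 and 11.9 FPKM (log2 fold change 3.27). Gfap, the intermediate filament of non-myelinating Schwann cells, fell against this trend, from 96.9 and 92.7 FPKM to 29.4 and 22.8 FPKM (log2 fold change −1.81, SE 0.121, adjusted p = 1.7e-06). Tagln, an actin-binding protein of smooth muscle, fell from 14.1 and 16.7 FPKM to 1.33 and 3.26 FPKM (log2 fold change −2.64, −3.49 without day 3 replicate 2). Tubulin and actin genes have close paralogs, between which RSEM divides ambiguous fragments, so single members of those families are less certain.

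Genes for the uptake of debris were mixed, and those of the lysosome rose more often than they fell. In the phagocytosis list 13 of 31 rose and 11 fell (median 0.36). Mertk, a receptor for apoptotic cells and myelin, rose from 4.83 and 4.2 FPKM to 38.3 and 40.1 FPKM (log2 fold change 3.17, SE 0.147, adjusted p = 2.0e-07), and its relative Axl rose from 37.8 and 31 FPKM to 83 and 76.2 FPKM (log2 fold change 1.26). Their bridging ligands did not follow, since Gas6 had 4.51 and 4.02 FPKM before crush and 3.75 and 4.01 FPKM at day 3 without a call and Pros1 fell from 35.9 and 31.6 FPKM to 17.8 and 16.1 FPKM (log2 fold change −0.95). Adgrb1, another receptor for apoptotic cells, fell from 2.66 and 2.86 FPKM to 0.06 and 0.07 FPKM (log2 fold change −5.25). Of 60 lysosome and autophagy genes 37 rose and 5 fell (median 0.48), while 28 rises were called without day 3 replicate 1 or 2 and 30 with upper quartile scaling. Lipa, the lysosomal acid lipase that frees cholesterol from esters, rose from 6.45 and 5.48 FPKM to 112 and 119 FPKM (log2 fold change 4.33, SE 0.15, adjusted p = 5.5e-08). The cathepsin genes Ctsa and Ctsb rose, Ctsa from 67.7 and 71.4 FPKM to 235 and 275 FPKM (log2 fold change 1.93) and Ctsb from 137 and 129 FPKM to 402 and 404 FPKM (log2 fold change 1.65). Ctsc and Ctsh fell, Ctsc from 70.2 and 71.1 FPKM to 24.7 and 23.6 FPKM (log2 fold change −1.52) and Ctsh from 83.7 and 76 FPKM to 42.9 and 42.6 FPKM (log2 fold change −0.86). Lamp1, a membrane protein of lysosomes, rose from 218 and 189.9 FPKM to 366 and 361 FPKM (log2 fold change 0.89).

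Immune genes changed in both directions, and the macrophage markers of day 3 replicate 2 moved with several of the rises. Of 41 chemokines, cytokines and receptors 11 rose and 15 fell (median −0.17), and without that library 10 rose and 16 fell (median −1.58). The balance turned without day 3 replicate 1, with 12 higher and 10 lower, and without uncrushed replicate 1, with 12 and 11. In whole nerve 28 of 50 genes of this list rose and 3 fell (median 0.97), against 23.3% and 18.5% of all genes tested there. The difference, Schwann cells minus nerve, was called below 0 for 22 and above 0 for 5. The list summed to 1577 and 1448 FPKM in uncrushed Schwann cells and to 476 and 459 FPKM in uncrushed nerve. What dissociation added to these levels was not tested. Cxcl1, a neutrophil chemokine, fell from 569 and 543 FPKM to 38.2 and 53.5 FPKM (log2 fold change −3.55, SE 0.183, adjusted p = 3.3e-07). Ccl2, the monocyte chemokine, fell from 514 and 456 FPKM to 202 and 291 FPKM (log2 fold change −0.93), and its call was lost without day 3 replicate 1. Il16, a chemoattractant of CD4+ cells, fell from 15.2 and 15 FPKM to 1.02 and 0.91 FPKM (log2 fold change −3.70). Il18, a cytokine of the interleukin-1 family, was at the floor before crush and at 4.18 and 3.89 FPKM on day 3, at least 9.18-fold higher, with both day 3 libraries alike. Lif, a cytokine of the interleukin-6 family, rose from 0.69 and 0.27 FPKM to 3.61 and 4.74 FPKM (log2 fold change 3.60). Ccl3, a chemokine of macrophages, had 3.53 and 1.54 FPKM before crush and 4.06 and 28.4 FPKM at day 3, and the MHC class II chaperone Cd74 had 0.92 and 0.31 FPKM and 1.37 and 5.67 FPKM. Both were called higher, and neither was called without day 3 replicate 2, which stood above the other libraries, or without uncrushed replicate 2.

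Complement genes counted 3 higher and 6 lower of 17 tested, and 0 and 6 without day 3 replicate 2. Without uncrushed replicate 1 a single rise was called. C4a and C4b, which are near-identical copies, fell together, C4a from 1.74 and 2.64 FPKM to 0.09 and 0.13 FPKM (log2 fold change −4.16) and C4b from 1.54 and 1.29 FPKM to 0.15 and 0.17 FPKM (log2 fold change −3.08). C1r, the protease of the C1 complex, fell from 30.2 and 26.2 FPKM to 12.7 and 11.1 FPKM (log2 fold change −1.19). MHC and antigen presentation genes counted 4 higher and 5 lower of 21, and 0 and 4 without that library. Without day 3 replicate 1 or uncrushed replicate 2 the rises numbered 2 and 1. Nlrc5, the activator of MHC class I genes, fell from 0.18 and 0.2 FPKM to 0.01 and 0.02 FPKM (log2 fold change −3.62, −4.62 without day 3 replicate 2 on at most 3 counts in replicate 1). What the macrophage transcripts contribute to the rises in these lists was not tested beyond leaving that library out.

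Interferon response genes fell with and without that library, 18 of 27 with 2 higher (median −1.15), and 15 with 1 higher in its absence. A single rise was also called without either uncrushed replicate. Ifitm3, a restriction factor against viruses, fell from 404 and 419 FPKM to 45.1 and 45.4 FPKM (log2 fold change −3.15, SE 0.135, adjusted p = 1.3e-07). Irf1, described above, Irf9 and Stat2 all fell. Irf9 fell from 34.3 and 30.0 FPKM to 10.6 and 9.82 FPKM (log2 fold change −1.59), and Stat2, its partner in type I interferon signaling, fell from 12.6 and 11.3 FPKM to 3.05 and 3.34 FPKM (log2 fold change −1.89). Ifit1, an effector gene, fell from 3.72 and 1.73 FPKM to 0.2 and 0.17 FPKM (log2 fold change −3.78, −3.16 without uncrushed replicate 1). Gbp2, a guanylate-binding protein, rose from 61.5 and 68.5 FPKM to 279 and 242 FPKM (log2 fold change 2.05, SE 0.137, adjusted p = 1.7e-06) in both day 3 libraries.

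Signaling lists gave mixed directions. Of 19 ERK feedback genes 7 rose and 8 fell (median log2 fold change 0.12, 0.36 without day 3 replicate 1, −0.29 without day 3 replicate 2, 0.03 without uncrushed replicate 1, 0.18 without uncrushed replicate 2). Dusp10, a phosphatase for the kinases JNK and p38, rose from 19.3 and 17 FPKM to 298 and 322 FPKM (log2 fold change 4.15, SE 0.176, adjusted p = 1.2e-07). Dusp6, the phosphatase for ERK, fell from 21.3 and 24.2 FPKM to 11.5 and 12.1 FPKM (log2 fold change −0.89), and Dusp7, of the same kind, rose from 8.79 and 9.27 FPKM to 20.3 and 20.5 FPKM (log2 fold change 1.23). Spry1, an inhibitor of receptor tyrosine kinases, fell from 13.3 and 10.5 FPKM to 1.89 and 2.48 FPKM (log2 fold change −2.37). Of 30 genes of PI3K, Akt and mTOR signaling 8 rose and 13 fell (median −0.09, −0.16 without day 3 replicate 1, −0.14 without uncrushed replicate 2), or 5 and 11 without day 3 replicate 1. Pik3r1, the main regulatory subunit of PI3K, fell from 217 and 179.9 FPKM to 81.5 and 82.5 FPKM (log2 fold change −1.10), and Ddit4, an inhibitor of mTOR, fell from 2.92 and 2.99 FPKM to 0.08 and 0.43 FPKM (log2 fold change −3.29, −5.03 without day 3 replicate 2 on at most 3 counts in replicate 1). Eif4ebp2, a repressor of translation that mTOR inactivates, rose from 25.8 and 33 FPKM to 66.8 and 60.4 FPKM (log2 fold change 1.16). Of 36 AGE-RAGE genes 12 rose and 17 fell (median −0.55), among them the collagens and growth factors given above. Thbd, thrombomodulin, fell from 16.5 and 8.52 FPKM to 0.48 and 1.4 FPKM (log2 fold change −3.60, −4.66 without day 3 replicate 2). Diaph1, which binds the receptor RAGE inside the cell, rose from 4.63 and 4.17 FPKM to 6.41 and 6.73 FPKM (log2 fold change 0.63).

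Of 33 Wnt pathway genes 18 fell and 6 rose (median −0.50). Sfrp5, a secreted Wnt antagonist, fell from 29.4 and 26.7 FPKM to 0.18 and 0.34 FPKM (log2 fold change −6.58, −7.23 without day 3 replicate 2), and the ligand Wnt5a fell from 1.17 and 0.67 FPKM to 0.04 and 0.13 FPKM (log2 fold change −3.09, −4.06 without day 3 replicate 2 on at most 3 counts in replicate 1). Fzd7, a Wnt receptor, was at the floor before crush and at 1.58 and 1.58 FPKM on day 3, at least 25.2-fold higher. Of 22 Notch pathway genes 4 rose and 6 fell (median −0.29). The Notch targets Hes1 and Nrarp fell, Hes1 from 10.6 and 14.5 FPKM to 0.98 and 2.23 FPKM (log2 fold change −2.85, −3.62 without day 3 replicate 2) and Nrarp from 1.96 and 3.05 FPKM to 0.29 and 0.46 FPKM (log2 fold change −2.63), while Heyl, another target, rose from 0.03 and 0.14 FPKM to 2.7 and 2.05 FPKM (log2 fold change 4.83, 4.06 without uncrushed replicate 1, 6.19 without uncrushed replicate 2 on at most 3 counts in replicate 1). The receptors Notch1 and Notch2 were not called and stood near their uncrushed level, Notch1 going from 16.2 and 16.9 FPKM to 14.6 and 14.8 FPKM and Notch2 from 24.3 and 22.9 FPKM to 24 and 24.9 FPKM. Of 13 Hedgehog genes 4 rose and 6 fell (median −0.73), and 1 rise was called without day 3 replicate 1 and 2 without day 3 replicate 2 or uncrushed replicate 2. Dhh, the Hedgehog ligand of uninjured Schwann cells, was not called and had 63.4 and 61.8 FPKM before crush and 60.4 and 60.4 FPKM at day 3, in contrast to Shh. Gas1, a Hedgehog co-receptor, fell from 4.8 and 4.58 FPKM to 1.29 and 1.13 FPKM (log2 fold change −1.91).

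Of 29 glycolysis genes 16 rose and 6 fell (median 0.72). Pgam1, phosphoglycerate mutase, rose from 53.5 and 56.2 FPKM to 306 and 289 FPKM (log2 fold change 2.49, SE 0.111, adjusted p = 1.6e-07). Pfkfb4, which makes an activator of glycolysis, rose from 1.42 and 1.15 FPKM to 16.2 and 15 FPKM (log2 fold change 3.93, SE 0.169, adjusted p = 1.3e-07), and Hk1, the hexokinase of the nervous system, rose from 7.61 and 8.31 FPKM to 15.7 and 14.8 FPKM (log2 fold change 0.99). Among the falls, Aldoc, the aldolase of glia, fell from 79.2 and 78.4 FPKM to 7.38 and 7.8 FPKM (log2 fold change −3.32, SE 0.119, adjusted p = 5.9e-08), and Pfkm, the muscle-type phosphofructokinase, fell from 28.4 and 29.8 FPKM to 4.29 and 4.15 FPKM (log2 fold change −2.73). Of 26 genes of the pentose phosphate, serine and one-carbon pathways 9 rose and 7 fell (median 0.18, 0.07 without day 3 replicate 2, 0.29 without uncrushed replicate 1, 0.10 without uncrushed replicate 2). Paics, of purine synthesis, rose from 12.9 and 11.5 FPKM to 45.2 and 47.2 FPKM (log2 fold change 1.97). Of 18 galactose metabolism genes 10 rose and 3 fell (median 0.59). Galk1, galactokinase, rose from 2.51 and 3.63 FPKM to 10.6 and 11.7 FPKM (log2 fold change 1.92).

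Most genes of oxidative phosphorylation and most ribosomal protein genes were called higher by small amounts, as were most genes of up to 1000 bases and at least 50 FPKM outside these lists. Of 66 nuclear oxidative phosphorylation genes 43 rose and 1 fell (median 0.65), of 13 genes of the mitochondrial genome 11 rose and none fell (median 0.62), and of 77 cytosolic ribosomal protein genes 65 rose and none fell (median 0.58). Cox5b, a subunit of cytochrome oxidase, rose from 63.7 and 79.9 FPKM to 291 and 329 FPKM (log2 fold change 2.14). ATP6, a subunit of ATP synthase encoded by the mitochondrial genome, rose from 2697 and 3092 FPKM to 5837 and 5932 FPKM (log2 fold change 1.06). Rpl41 rose from 717 and 812 FPKM to 2257 and 2224 FPKM (log2 fold change 1.57), and Rplp0, of the ribosomal stalk, rose from 197 and 215 FPKM to 443 and 432 FPKM (log2 fold change 1.13). Most of the nuclear genes of these lists are short, with median lengths of 554 bases for ribosomal protein and 689.5 bases for oxidative phosphorylation genes, and short genes in general were higher at day 3. Among all genes tested of up to 1000 bases 42.3% were called higher and 10.5% lower (median 0.47), against 21.9% and 36.8% for genes above 4000 bases (median −0.20). The 212 genes of up to 1000 bases and at least 50 FPKM that belong to neither list had a median of 0.68 and 68.9% called higher, against the medians of 0.65 and 0.58 of the lists. The mitosis genes had a median length of 2758 bases and the cholesterol synthesis genes 2413 bases. Ribosomal protein genes also have many processed copies in the genome, between which fragments may be divided. Without day 3 replicate 2 a single ribosomal protein gene was called lower, and without day 3 replicate 1 no oxidative phosphorylation gene was. Of 40 ribosome biogenesis genes 8 rose and 4 fell (median −0.08, −0.15 without day 3 replicate 1, −0.01 without day 3 replicate 2, −0.01 without uncrushed replicate 1), and 4 or 5 rises were called without day 3 replicate 1 or 2. Npm1, a nucleolar chaperone of ribosome assembly, rose from 335 and 354 FPKM to 592 and 599 FPKM (log2 fold change 0.84).

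Chromatin and clock genes were mixed. Of 40 Polycomb and chromatin genes 10 rose and 15 fell (median −0.08, −0.14 without day 3 replicate 1, −0.02 without day 3 replicate 2). Tet1, an enzyme that oxidizes methylated cytosine, fell from 9.83 and 9.32 FPKM to 0.92 and 1.13 FPKM (log2 fold change −3.15, SE 0.149, adjusted p = 2.1e-07), and Dnmt3b, a DNA methyltransferase, fell from 1.11 and 0.89 FPKM to 0.25 and 0.24 FPKM (log2 fold change −1.98). Hdac5, a class II histone deacetylase, rose from 4.17 and 4.46 FPKM to 11.5 and 11.7 FPKM (log2 fold change 1.48). Of the Polycomb methyltransferases Ezh1 fell from 5.55 and 4.77 FPKM to 3.11 and 3.32 FPKM (log2 fold change −0.62) and Ezh2 was not called and had 49.2 and 51.1 FPKM before crush and 58.4 and 53.7 FPKM at day 3. Of 22 circadian clock genes 6 rose and 8 fell (median −0.30, −0.18 without uncrushed replicate 1). Against the rise of Npas2, its partner Arntl fell from 25 and 18.6 FPKM to 9.66 and 8.05 FPKM (log2 fold change −1.24) and Per1, a repressor of the loop, fell from 14.5 and 16.4 FPKM to 3.59 and 4.75 FPKM (log2 fold change −1.83). The hour of collection is not given in the sources used here. Of 21 genes of the unfolded protein response 8 rose and 4 fell (median 0.31, 0.16 without uncrushed replicate 1). Calr, a chaperone of the endoplasmic reticulum, rose from 142 and 134 FPKM to 224 and 227 FPKM (log2 fold change 0.76), and Atf4, the stress transcription factor, fell from 381 and 372 FPKM to 172 and 172 FPKM (log2 fold change −1.08). The chaperone Hspa5 was not called and had 1254 and 1103 FPKM before crush and 1124 and 1152 FPKM at day 3. Of 13 iron handling genes 1 rose and 3 fell, or 1 fell without day 3 replicate 1 and 2 rose without either uncrushed replicate. The rise with all libraries was that of Ftl1, the ferritin light chain, which rose from 369 and 459 FPKM to 1145 and 1168 FPKM (log2 fold change 1.52), and Cp, ceruloplasmin, fell from 52.4 and 49.8 FPKM to 7.35 and 7.32 FPKM (log2 fold change −2.74, SE 0.0989, adjusted p = 6.0e-08).

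Immediate-early genes, which cells switch on within minutes of a stimulus, were mostly lower at day 3. Of 31 tested 23 fell and 2 rose (median −1.47). Fos fell from 934 and 962 FPKM to 250.3 and 241 FPKM (log2 fold change −1.90, SE 0.112, adjusted p = 7.8e-07) and Fosb fell from 239.7 and 339.5 FPKM to 77.6 and 78.6 FPKM (log2 fold change −1.84). Zfp36, which destabilizes mRNA, fell from 1875 and 2067 FPKM to 287 and 294 FPKM (log2 fold change −2.72, SE 0.114, adjusted p = 1.2e-07), and Gadd45g, a growth arrest gene, fell from 88.1 and 94.9 FPKM to 6.14 and 7.05 FPKM (log2 fold change −3.74). Their rises were those of the AP-1 subunits Fosl1 and Fosl2, Fosl1 from 3.05 and 3.6 FPKM to 20.7 and 21 FPKM (log2 fold change 2.70) and Fosl2 from 6.8 and 5.44 FPKM to 10.2 and 10.7 FPKM (log2 fold change 0.82). Of 15 heat shock genes 7 fell and 1 rose (median −0.48), with no rise called without day 3 replicate 1 or 2, and Hspa1a, the inducible chaperone, fell from 259.5 and 270.2 FPKM to 60.8 and 89.1 FPKM (log2 fold change −1.77).

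Both groups of Schwann cells had been through enzymatic and mechanical dissociation and panning, and whole nerve had not. In uncrushed whole nerve Fos was at 2.47 and 2.03 FPKM and Zfp36 at 23.1 and 27.7 FPKM, far under the levels of the uncrushed purified cells just given. In whole nerve 15 of 31 immediate-early genes were called higher at day 3 and 3 lower (median 0.89), against 23.3% higher and 18.5% lower of all genes tested in nerve. Heat shock genes counted 7 higher and 2 lower of 16 in nerve (median 0.34). They summed to 5893 and 6543 FPKM in uncrushed Schwann cells and to 3016 and 2897 FPKM in uncrushed nerve. What dissociation added to either Schwann cell group was not tested, and the dissociated nerve that the study also sequenced was not analysed here.

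The change at day 3 was then set against that in whole nerve by testing the difference of the log2 fold changes, Schwann cells minus nerve. The difference was called for 4376 of 16829 genes (26.0%), with 2076 (12.3%) above 0 and 2300 (13.7%) below. In whole nerve itself 3924 genes were called higher and 3111 lower. Structural myelin genes fell in both, 23 of 25 in whole nerve (median −3.24), and the difference was above 0 for 17 and below for 2. Pmp2, a fatty acid-binding protein of myelin, went from 2296 and 2310.2 FPKM to 83.6 and 77.9 FPKM in nerve and from 226 and 179 FPKM to 76.5 and 74.9 FPKM in Schwann cells, a difference of 3.77 (SE 0.202, adjusted p = 2.3e-08). Cntf went from 206 and 224 FPKM to 6.92 and 7.65 FPKM in nerve, a difference of 4.64 from its small fall in Schwann cells (SE 0.178, adjusted p = 2.4e-09). Mitosis genes rose in both, by a median of 3.20 in nerve, and for 52 of 58 the difference was below 0. The genes of the mitochondrial genome all fell in whole nerve (median −1.48), and the difference was above 0 for all 13. For immediate-early genes the difference was below 0 for 21 of 31, for interferon response genes for 19 of 30, and for neither list was any member above 0. In whole nerve 14 interferon response genes rose and 1 fell.

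**Figure D4:**
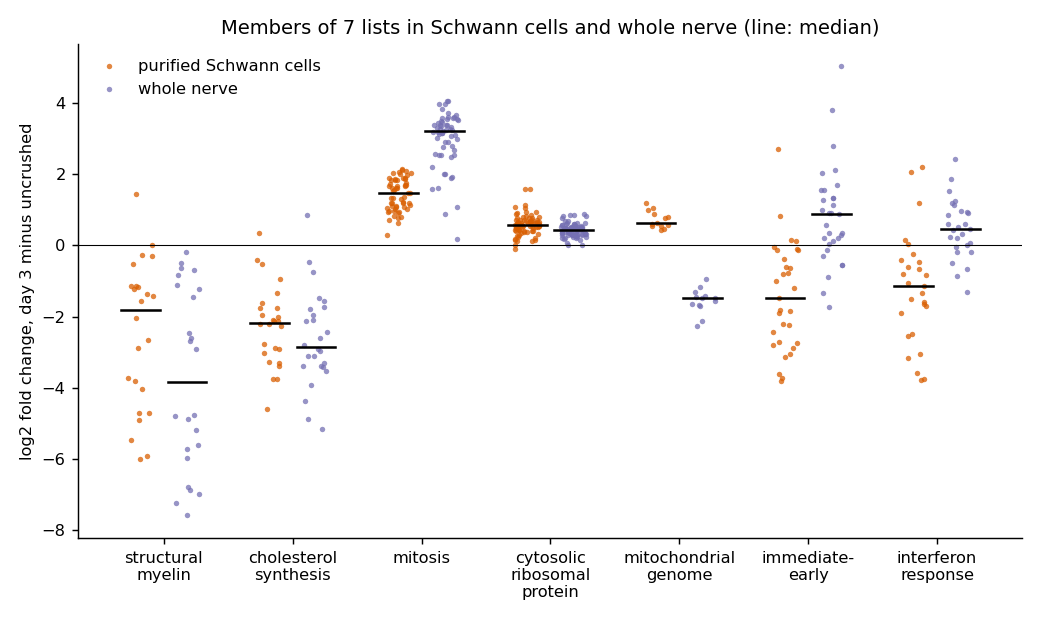
Log2 fold change at day 3 against uncrushed (vertical axis) of the members of 7 lists, each point a gene, in purified Schwann cells (orange) and in whole nerve (violet), with a black line at the median of the members tested in both. Structural myelin, cholesterol and mitosis genes moved the same way in both, while the medians of the mitochondrial genome, immediate-early and interferon lists lie on opposite sides of 0.

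Single genes with the lowest p for this difference included Igfbp5, a binding protein of insulin-like growth factors, which went from 2.53 and 1.82 FPKM to 47.3 and 55 FPKM in Schwann cells and from 32 and 28 FPKM to 51.9 and 53.9 FPKM in nerve (difference 4.09, SE 0.186, adjusted p = 7.7e-09). Nes went from 94.7 and 90.5 FPKM to 119 and 138 FPKM in nerve, less than in Schwann cells (difference 3.17, SE 0.162, adjusted p = 1.9e-08). Cp, Ifitm3 and Socs3 had the opposite direction in the 2 preparations. Cp fell in Schwann cells and went from 23.8 and 28 FPKM to 60.7 and 67.6 FPKM in nerve (difference −3.75, SE 0.145, adjusted p = 2.4e-09). Ifitm3 went from 509 and 409 FPKM to 1148 and 999 FPKM there (difference −4.08, SE 0.192, adjusted p = 1.0e-08). Socs3, an inhibitor of cytokine signaling, fell from 153 and 169 FPKM to 18.4 and 16.9 FPKM in Schwann cells and went from 0.68 and 0.92 FPKM to 5.36 and 8.21 FPKM in nerve (difference −5.95, SE 0.265, adjusted p = 6.8e-09). Whole nerve holds other cells, and its macrophage markers summed to 627 and 591 FPKM before crush and 3506 and 3457 FPKM at day 3. Their part in these differences was not tested.

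Between day 3 and day 5 fewer genes changed than by day 3. The same fit called 1863 of 14961 genes (12.5%), with 911 higher at day 5 (6.09%) and 952 lower (6.36%). Leaving out day 3 replicate 1 or 2 left 628 or 541 calls, and leaving out day 5 replicate 1 or 2 left 592 or 737. Of 24 structural myelin genes 10 were higher at day 5 than at day 3 and 1 was lower. Cldn19 went from 6.13 and 6.51 FPKM at day 3 to 64.9 and 67.3 FPKM at day 5 (log2 fold change 3.55, SE 0.173, adjusted p = 1.2e-05), still under its uncrushed level. Ntm, an adhesion molecule of the IgLON family, had 14.6 and 14.4 FPKM before crush, 2.79 and 1.72 FPKM at day 3 and 26.5 and 27.2 FPKM at day 5 (log2 fold change from day 3 3.57, SE 0.168, adjusted p = 1.2e-05). Pde7b, a cyclic AMP phosphodiesterase, took a similar course with 22 and 22.9 FPKM before crush, 4.71 and 4.7 FPKM at day 3 and 20.7 and 22.4 FPKM at day 5. The cholesterol synthesis list showed no such return, with 1 gene higher and 2 lower of 26. Fdft1 was at 8.91 and 9.34 FPKM on day 5 and was not called (log2 fold change 0.11, adjusted p = 0.570).

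Some genes had their highest mean of the 4 time points at day 3. Pde1c, another phosphodiesterase, rose from 8.25 and 7.31 FPKM to 92.6 and 83.7 FPKM and was at 32.6 and 29.4 FPKM on day 5 (log2 fold change from day 3 −1.65, SE 0.135, adjusted p = 2.2e-04). Igfbp5 was at 19.2 and 19.3 FPKM on day 5 (log2 fold change −1.49, SE 0.133, adjusted p = 3.0e-04), and Runx2 at 69 and 75.1 FPKM (log2 fold change −1.11, SE 0.12, adjusted p = 7.1e-04). Of 58 mitosis genes 6 were lower at day 5 and none higher. Cdk1 was at 46.4 and 66.6 FPKM with libraries that stood apart, and was not called (adjusted p = 0.645). Of the 13 mitochondrial genome genes 11 were lower at day 5 (median −0.70). Gpr83 went further up from day 3, to 77.7 and 68.2 FPKM on day 5 (log2 fold change 1.48, SE 0.203, adjusted p = 0.00237).

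**Figure D5:**
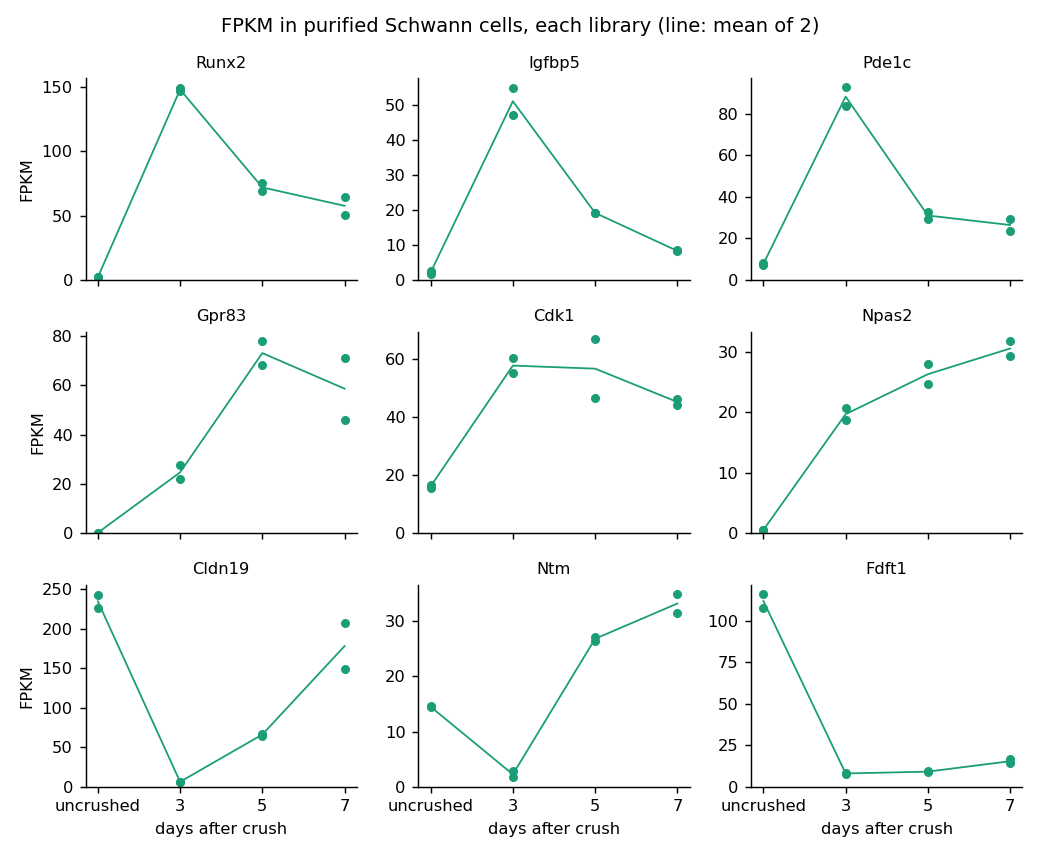
FPKM (vertical axis) of 9 genes in purified Schwann cells before crush and 3, 5 and 7 days after it (horizontal axis), with a point for each library and a line through the mean of 2. Runx2, Igfbp5 and Pde1c had their highest mean at day 3, Cldn19 and Ntm their lowest, and Fdft1 stayed low through day 7.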

How the data were processed

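RNA-seq was measured in purified Schwann cells and whole sciatic nerve of the rat, 2 pooled samples for each tissue and time. Per the labels and the study's methods, amplified cDNA without molecular identifiers was sequenced as paired ends, aligned with STAR and quantified with RSEM on a rat genome of the Rnor_6.0 build. The deposited tables hold expected counts, which are not normalized, and FPKM and TPM values, which the authors' RSEM runs scaled to gene length and library. TPM was not used. A count matrix of all libraries and a table of gene modules were not used.

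The expected counts, each rounded to the nearest whole number, were fitted over the 8 Schwann cell libraries with edgeR 4.0.16 (TMM scaling, filterByExpr, quasi-likelihood test, Benjamini-Hochberg threshold 0.05). The difference from whole nerve was an interaction term in a fit of all 16 libraries. The study tested with DESeq2, which is an alternative here (version 1.42.0), as is limma 3.58.1 on log2(FPKM + 1). In simulated counts with 200 changed genes among 14597, edgeR recovered 47 of 100 changed 2-fold and 80 of 100 changed 4-fold. Of its 140 calls 13 were false. The simulation changed far fewer genes than the 7860 called in the data, so these rates may not carry over to them. Totals of 12599974 to 27562637 counts set the counting precision of the 4 main libraries. Replicates of a group differed by more than sampling noise, so none was counted as a duplicate. R 4.3.3 and Python 3.11.15 were used.

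The gene lists (56 with 1535 genes, 44 of them functional and the others cell type markers), the comparison and the rules for naming genes were chosen with earlier results of these data known. Genes were named by rule: in each direction the 12 with the lowest adjusted p and the 12 with the largest fold, both among genes at 5 FPKM or more in the higher group and above the floor of 3 counts per library in the lower. In each list the rule took the 2 highest, the 2 lowest and the first 5 members as written, and for the difference from nerve and for day 5 against day 3 the 6 of lowest adjusted p each way. Atf3, Btc, Gap43, Met, Serpine2, Srebf2, Zfp36 and the promoter examples Cks1b, Hmmr, Prc1 and Pttg1 fall outside it and were chosen after their values were seen. Some genes that the rule takes are not reported here. Markers of neutrophils had too few counts to be tested, and those of T and B cells, fat, muscle and red blood cells had at most 2 members tested. Overlapping and antisense genes cannot be told apart, because the kit is not stated to keep strand.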

Additional observations from a re-analysis of the deposited data

Results flagged for a closer look

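The change at day 3 differed between purified Schwann cells and whole nerve by the test of the difference itself for 4376 genes (edgeR, adjusted p below 0.05). The genes with the lowest p in each direction are given with their log2 differences, Schwann cells minus nerve. Above 0 were Cntf with 4.64, Igfbp5 with 4.09, Pmp2 with 3.77, Nes with 3.17, Nbl1 with 3.00 and Kif13b, a kinesin, with 2.48. Kif13b itself was at 11.6 and 10.7 FPKM before crush and 10.8 and 10.6 FPKM at day 3 in Schwann cells, and went from 28.5 and 27.6 FPKM to 6.31 and 6.25 FPKM in nerve. Nbl1 rose in Schwann cells and went from 41.8 and 42.1 FPKM to 90.0 and 76.2 FPKM in nerve. Below 0 were Socs3 with −5.95, Abca9, a lipid transporter, with −5.45, Ifitm3 with −4.08, Dab2, an endocytic adaptor, with −3.92, Cp with −3.75 and Kctd12, a subunit of GABA-B receptors, with −3.18. Dab2 fell from 45.5 and 38.5 FPKM to 4.38 and 4.78 FPKM in Schwann cells and went from 57.3 and 48.7 FPKM to 114 and 112 FPKM in nerve. The preparations differ in dissociation and in cell types as well as in Schwann cell state, and these cannot be told apart in the 16 libraries used here. Dissociated nerve was not analysed here. With 2 libraries in each group no group was large enough for a search for outlying samples.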

How the results depend on the processing

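No gene shared between the calls of the main analysis and those of any alternative changed direction. For day 3 against uncrushed the alternatives gave 6639 to 8328 calls, other than a required 2-fold change, with which 4067 remained (1742 higher and 2325 lower), and leaving out a library, which gave 5906 to 7038. Upper quartile scaling moved the median of all genes by −0.08 and gave 3562 calls higher and 4265 lower. Some list medians also moved with the setting, among them those of the Hedgehog and ion channel genes. The Hedgehog median of −0.73 was −0.13 with limma and −0.45 at a mean of at least 50 counts. The ion channel median of −1.32 was −0.58 with limma. For day 5 against day 3 a 2-fold change left 612 calls, with 306 in each direction, and testing without a filter on low counts, which adds scarce genes, gave 1438 lower. Leaving out a library gave 541 to 737 calls there, 283 to 419 higher and 258 to 320 lower. For the difference from nerve a 2-fold change left 2470 calls (1027 above 0 and 1443 below), and leaving out a library gave 3190 to 4374.

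Values of genes that were not called changed sign, all but those of Col1a2 and Cdk1 near 0. In the order DESeq2, all 16 libraries, limma, a mean of at least 50 counts, no filter and upper quartile scaling, the log2 fold changes at day 3 were −0.036, −0.033, −0.051, −0.069, −0.0031 and −0.079 for Cnp, −0.037, −0.034, −0.050, −0.070, −0.0044 and −0.080 for Dhh, −0.034, −0.032, −0.048, −0.067, −0.0029 and −0.078 for Hspa5, and −0.036, −0.033, −0.054, −0.069, −0.0046 and −0.080 for Kif13b. Without 1 library they were −0.063 to 0.042 for Cnp, −0.020 to −0.0042 for Dhh, −0.090 to 0.070 for Hspa5, −0.080 to 0.055 for Kif13b, −0.065 to 0.20 for Sox10 and −1.53 to 2.73 for Col1a2. Sox10 was at −0.0077 with upper quartile scaling and Col1a2 at 0.52 with limma. Col1a2, at −0.57 with all libraries, was called higher without uncrushed replicate 1 (edgeR, adjusted p = 0.0201) and lower with no filter on low counts (adjusted p = 7.0e-06), so its direction is not settled. For day 5 against day 3, Cdk1 was at −0.36 to 0.098 without 1 library. The cause was not tested. Among all values of named genes under alternatives, 2998 of 3084 kept direction and side of the threshold, 46 lost the call, 1 gained it and 39 changed sign. The macrophage marker Lyz2 lost its call with 4 libraries only, DESeq2, limma and the replicate block, and its log2 fold change was 0.12 without day 3 replicate 2.

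The replicate numbers were not taken to pair the pools. Deviations of same-numbered samples from their group means had correlations of −0.055 to 0.076 across genes over the 28 pairs of groups, Schwann cells and whole nerve, and no label ties the numbers to a shared animal or day. With the replicate block edgeR called 7657 genes at day 3, 1614 for day 5 against day 3 and 4301 for the difference from nerve.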

Other observations

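The markers of other nerve cells not described above are given here for the Schwann cell libraries, in which 26.9% of all genes tested were called higher and 25.7% lower at day 3. Of mural cell markers 0 were called higher and 2 lower of 6 tested, and their summed level went from 52.2 and 39.0 FPKM to 8.77 and 19.0 FPKM. Of perineurial markers 0 were called higher and 1 lower of 3 tested, with sums of 119 and 115 FPKM before crush and 58.0 and 59.9 FPKM at day 3. Of satellite glial markers, several of which Schwann cells also express, 0 were called higher and 3 lower of 4 tested. Of muscle markers 1 was called higher and 1 lower of 2 tested, from sums of at most 2.65 FPKM. Of 1 marker tested for T and B cells, 1 for fat cells and 2 for red blood cells, 0 were called. In whole nerve the sums for fat cell markers were 969 to 1981 FPKM before crush and at day 3, against 0.74 to 3.97 FPKM in Schwann cells. The muscle markers summed to 28.1 and 418.5 FPKM in uncrushed nerve and to 13.2 and 8.8 FPKM at day 3. All 6 were called lower there, and their part in the changes of nerve was not tested.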
